A study of Mus musculus with 6 samples.

Results

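The genes examined here carry out the synthesis of bile acids from cholesterol in the liver and their uptake from the blood. They are Cyp7a1, Cyp8b1, Cyp27a1, Cyp7b1, Cyp39a1, Hsd3b7, Akr1d1, Baat and Slc10a1. A probe was taken as a member when the gene name printed for it in the scanner files of all 6 arrays was one of these 9 names. This gave 12 probes for 9 genes, out of 41174 probes carrying 27962 names on the array. Cyp7a1, Cyp39a1 and Baat had 2 probes each and the other genes had 1. The RNA was extracted from whole liver, so a lower signal from fewer hepatocytes and a lower amount of RNA per hepatocyte cannot be told apart.

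Bile acids are made from cholesterol in hepatocytes, secreted into bile, absorbed in the intestine and taken up again from portal blood. In the classic pathway, Cyp7a1 performs the rate-limiting hydroxylation of cholesterol, and Cyp8b1 directs the product toward cholic acid. In the alternative pathway, Cyp27a1 oxidizes the side chain of cholesterol in mitochondria and Cyp7b1 hydroxylates the resulting oxysterols, while Cyp39a1 acts on an oxysterol that comes largely from the brain. Hsd3b7 and Akr1d1 then modify the sterol rings, Baat joins the finished bile acid to an amino acid, and Slc10a1 (NTCP) is the sodium-dependent carrier that brings conjugated bile acids back into the hepatocyte.

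Male 129/Sv mice, 6 to 8 weeks old at the start, received the Lieber-DeCarli liquid diet with 4% ethanol, and the controls an isocaloric liquid diet in which maltose dextran replaced the ethanol. Both groups had first been kept on the control diet. Liver RNA of 6 mice per group was combined into an alcohol pool and a control pool after 1, 2 and 4 months, which gave 6 pools, and each month had its own mice. The 2 pools of a month were hybridized together on 2 two-color Agilent arrays, with alcohol in Cy5 on one and in Cy3 on the other.

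The promoters of 5 of the 9 genes were found in the RefSeq promoter table (GRCm38.p6). Those of Hsd3b7 and Cyp8b1 are shown because the alcohol over control ratio of both genes lay above 0 on both arrays at 1 month and below 0 on both at 4 months. That of Slc10a1 is shown because it shares a motif match with Hsd3b7. Capitals mark a match to TTCNNNGAA, the motif of STAT5, and each sequence ends at the base before the annotated start site.

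Hsd3b7, chr7:127800359-127800608, plus strand: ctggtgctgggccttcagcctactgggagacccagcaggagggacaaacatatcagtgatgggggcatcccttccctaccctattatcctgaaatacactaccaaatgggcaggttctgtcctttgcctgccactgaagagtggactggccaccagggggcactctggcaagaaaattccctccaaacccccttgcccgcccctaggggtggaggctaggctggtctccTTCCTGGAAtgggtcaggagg

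Cyp8b1, chr9:121916306-121916555, minus strand: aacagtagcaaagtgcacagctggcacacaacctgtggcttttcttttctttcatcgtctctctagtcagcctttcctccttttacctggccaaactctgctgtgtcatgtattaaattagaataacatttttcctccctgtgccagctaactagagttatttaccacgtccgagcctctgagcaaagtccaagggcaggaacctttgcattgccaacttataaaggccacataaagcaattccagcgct

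Slc10a1, chr12:80968706-80968955, minus strand: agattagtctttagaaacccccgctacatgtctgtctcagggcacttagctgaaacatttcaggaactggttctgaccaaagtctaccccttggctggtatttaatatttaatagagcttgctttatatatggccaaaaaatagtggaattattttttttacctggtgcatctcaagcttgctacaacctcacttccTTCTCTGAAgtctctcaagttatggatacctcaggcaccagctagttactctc

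The match in Hsd3b7 began at position -21 relative to the start site and that in Slc10a1 at position -53. TTCNNNGAA was present in 7.02% of the 32851 promoter windows of 250 bases, and in 2 of the 6 windows of the member genes, since Slc10a1 has 2 annotated starts. The LRH-1 element CAAGGTCA (1.33% of all windows), the D-box TTATGTAA (0.819%) and a direct repeat of AGGTCA spaced by 1 base (0.0335%) had no match in the 6 windows on either strand. CAAGGTCA contains the half-site of that repeat. A match describes the letters and is not evidence of binding. Only these exact patterns were searched, so a missing match does not show that variants of an element are absent.

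All 12 probes were well above background in both channels of all 6 arrays and none was saturated. Their processed signals ran from 427 to 35723 intensity units. On each array the ratio was expressed as log2 alcohol over control, and the 2 arrays of a month were averaged. The SD given with an average describes the repeat of the same 2 pools with exchanged dyes and contains no variation between mice, so no p-value is given within a month. The dye weighed more at the later months. A ratio of opposite sign on the 2 arrays was found for 1, 5 and 5 of the 12 probes at 1, 2 and 4 months, and for 51.8%, 65.5% and 69.9% of the 27898 probes with both channels clearly above background on every array. The 1-month arrays lay on one slide and the 2- and 4-month arrays on another, so slide and the step from 1 month to the later months cannot be told apart.

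**Figure D1:**
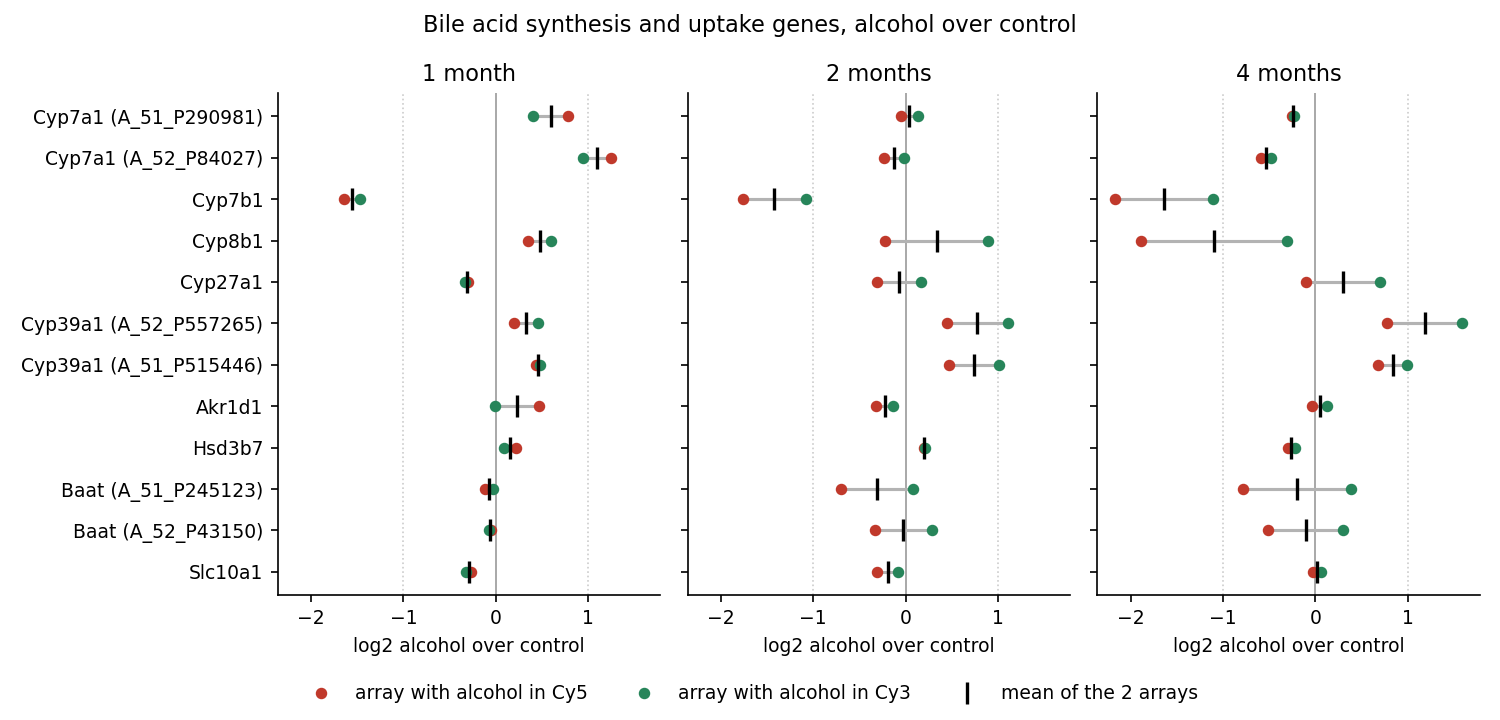
Log2 alcohol over control of the 12 probes (rows) at each month (panels), with a point for each array and a black tick at the mean of the 2 arrays; dotted lines mark 2-fold. Cyp7b1 lies below -1 on all 6 arrays, and both Cyp39a1 probes lie above 0 on all 6.

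Cyp7b1 was the member with the lowest ratio at every month, and Cyp39a1 the gene whose probes lay above 0 on every array. Cyp7a1 and Cyp8b1 were higher in the alcohol pool at 1 month and lower at 4 months. The monthly averages of the log2 ratios of Cyp27a1, Hsd3b7, Akr1d1, Baat and Slc10a1 lay between -0.31 and 0.30, with single arrays from -0.78 to 0.70. The median log2 ratio of the 12 probes was 0.19, -0.05 and -0.15 at 1, 2 and 4 months, against 0, 0.009 and -0.009 for all 37922 probes tested.

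A probe was called at a month when the average of the 2 arrays reached 2-fold and its deposited technical error gave a p below 0.05, which serves as a filter and not as a test of alcohol. At 1 month 1 of the 12 probes was called higher in the alcohol pool (a probe of Cyp7a1), where 0.126% of all 41174 probes were, and 1 was called lower (Cyp7b1), where 0.0801% were. At 2 months 0 were called higher, against 0.16% of all probes, and Cyp7b1 was again called lower, against 0.129%. At 4 months 1 was called higher (Cyp39a1; 0.34% of all probes) and 2 lower (Cyp7b1 and Cyp8b1; 0.282%). Cyp7b1 was called lower at all 3 months, as were 3 probes on the whole array (0.00729%).

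Cyp7b1 had log2 ratios of -1.64 on the 1-month array labeled with Cy5 for alcohol and -1.47 on the reverse array. In the same order, the 2-month arrays gave -1.76 and -1.08, and the 4-month arrays -2.17 and -1.11. All 6 arrays were thus more than 2-fold lower in the alcohol pool, and the arrays with alcohol in Cy5 gave the lower values. The monthly averages were -1.55 (SD 0.12, n = 2 arrays), -1.42 (SD 0.48) and -1.64 (SD 0.75), or 2.94-, 2.67- and 3.11-fold lower. Expressed as log2 units above the 75th percentile of its channel, the level was 3.34 in the control pool and 1.78 in the alcohol pool at 1 month. The corresponding levels were 3.98 and 2.56 for the 2-month pools and 3.20 and 1.56 for the 4-month pools. The control level was above the alcohol level on every array, and by the mean of the 2 arrays each of the 3 control pools lay above each of the 3 alcohol pools.

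With the 3 months as replicates, the mean log2 ratio of Cyp7b1 was -1.54 (SE 0.07, 95% confidence interval -1.72 to -1.35, n = 3 months), or 2.90-fold lower. The limma test against 0 gave an adjusted p of 0.106, the second smallest unadjusted p of 37922 probes, and no probe of the array passed the threshold (0% called, with 7.98% at an unadjusted p below 0.05). After normexp background correction and loess normalization the limma adjusted p of Cyp7b1 was 0.00536, with 0.0237% of probes called. It was 0.00671 when the fit was limited to those 27898 probes, with 0.0215% called. Over 13 alternative settings the mean ratio lay between -1.86 and -1.22, and the limma adjusted p between 0.00536 and 0.962, the highest values with a month left out. Of the 27898 probes, 2.68% were below 0 on all 6 arrays, and the mean of Cyp7b1 was the 3rd lowest.

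Cyp39a1 was measured by A_52_P557265 and A_51_P515446. In the same order of dyes, A_52_P557265 gave log2 ratios of 0.20 and 0.46 after 1 month, 0.44 and 1.11 after 2 and 0.77 and 1.59 after 4. For A_51_P515446 they were 0.44 and 0.48, 0.47 and 1.01, and 0.68 and 0.99. Both probes were higher in the alcohol pool on all 6 arrays, as were 1.61% of the 27898 probes, and their averages were larger at each later month. The averages of A_52_P557265 were 0.33 (SD 0.18, n = 2 arrays), 0.78 (SD 0.47) and 1.18 (SD 0.58), the last corresponding to 2.27-fold. Those of A_51_P515446 were 0.46 (SD 0.03), 0.74 (SD 0.39) and 0.83 (SD 0.22), or 1.78-fold at 4 months. The step between 2 and 4 months was within the SD of the arrays for both probes.

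The mean over the months was 0.76 for A_52_P557265 (SE 0.17, 95% confidence interval 0.32 to 1.20, n = 3; limma adjusted p = 0.620) and 0.68 for A_51_P515446 (SE 0.09, 0.44 to 0.92; limma adjusted p = 0.601). They ranked 49th and 58th from the highest mean among the 27898 probes. The log2 level of A_52_P557265 was 0.41, 0.54 and 0.58 in the successive control pools and 0.74, 1.31 and 1.76 in the successive alcohol pools. For A_51_P515446 the level was higher at each later month in both groups, from -1.15 to 0.15 in the control pools and from -0.69 to 0.98 in the alcohol pools. The probes therefore differed in the control pools, although both gave a higher level in the alcohol pool at each month.

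**Figure D2:**
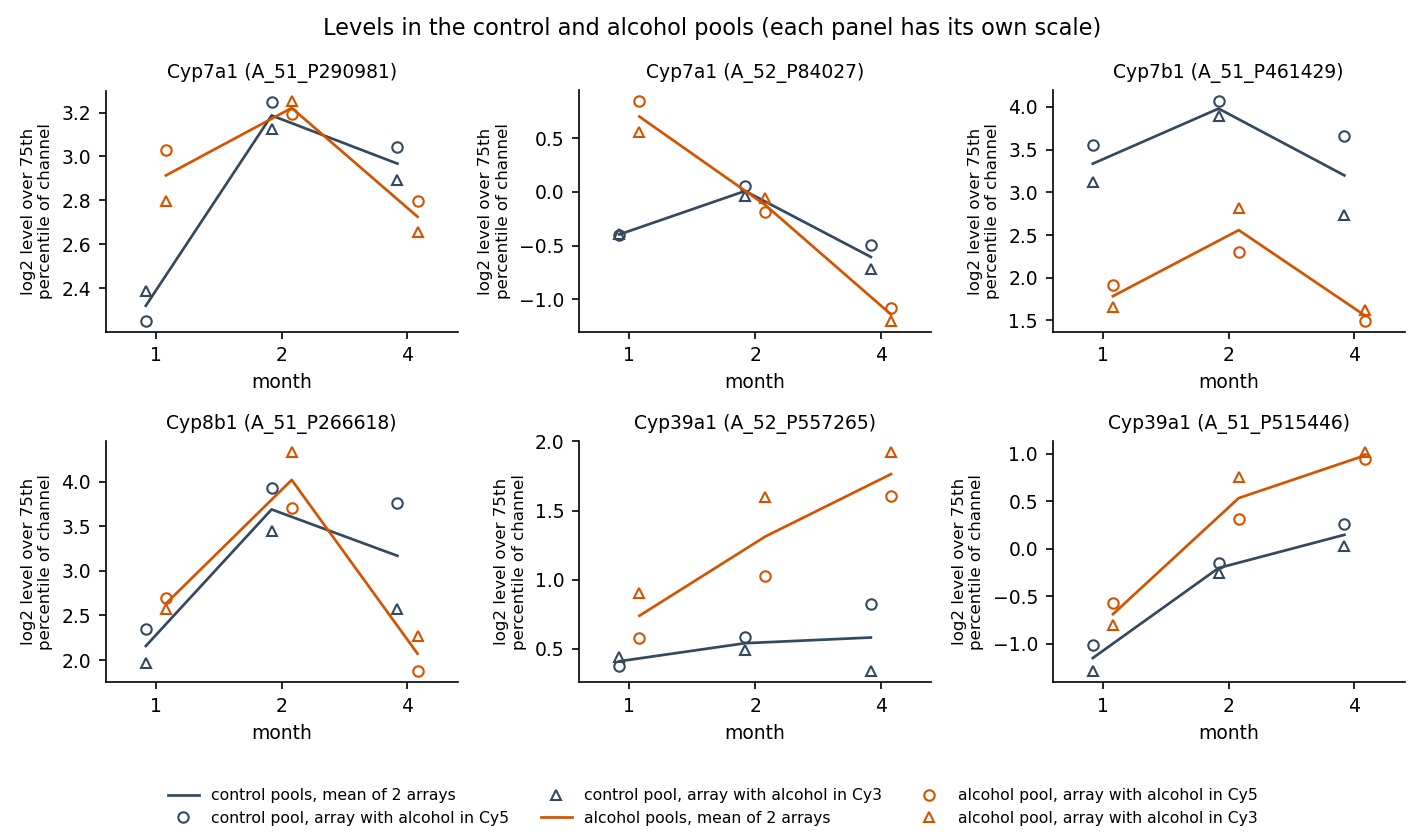
Log2 level relative to the 75th percentile of the channel (vertical axis, a scale of its own in each panel) in control and alcohol pools by month, for the 6 probes of Cyp7a1, Cyp7b1, Cyp8b1 and Cyp39a1; symbols are single arrays and lines join the means of 2 arrays. The Cyp7b1 lines stay apart at all months, those of Cyp7a1 cross at about 2 months, and those of Cyp8b1 cross between 2 and 4 months.

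Cyp7a1 was also measured by 2 probes. A_52_P84027 gave log2 ratios of 1.24 and 0.95 after 1 month, -0.23 and -0.02 after 2 and -0.59 and -0.48 after 4. A_51_P290981, with the stronger signal, gave 0.78 and 0.41, -0.05 and 0.13, and -0.25 and -0.23. Both probes were above 0 on both arrays at 1 month and below 0 on both at 4 months, and the size was larger for A_52_P84027. Its averages were 1.09 (SD 0.21, n = 2 arrays), -0.13 (SD 0.15) and -0.54 (SD 0.08), or 2.13-fold higher at 1 month and 1.45-fold lower at 4 months. The averages of A_51_P290981 were 0.59 (SD 0.26), 0.04 (SD 0.13) and -0.24 (SD 0.01), or 1.51-fold higher at 1 month and 1.18-fold lower at 4 months. Only the first of the 2 probes reached 2-fold at 1 month.

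The log2 level of A_52_P84027 was 0.70, -0.12 and -1.14 in the successive alcohol pools, against -0.40, 0.01 and -0.61 in the controls. For A_51_P290981 the control pools ran from 2.32 at 1 month to 3.19 and 2.97, and the alcohol pools were at 2.91, 3.22 and 2.73. The mean ratio over the months was 0.14 for A_52_P84027 (95% confidence interval -0.69 to 0.98) and 0.13 for A_51_P290981 (-0.31 to 0.57), with limma adjusted p-values of 0.920 and 0.853.

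Cyp8b1 had log2 ratios of 0.35 and 0.60 after 1 month, -0.22 and 0.89 after 2 and -1.89 and -0.30 after 4. It was higher in the alcohol pool on both arrays at 1 month, of opposite sign on the 2 arrays at 2 months, and lower on both at 4 months. The averages were 0.47 (SD 0.18, n = 2 arrays), 0.34 (SD 0.78) and -1.10 (SD 1.12). The 2.14-fold lower value at 4 months rests mainly on the array that carried alcohol in Cy5, and the SD of the 2 arrays was larger than the average. Its log2 level in the control pools was 2.16, 3.69 and 3.17, and in the alcohol pools 2.63, 4.02 and 2.07. The difference between the control pools of 1 and 2 months, which were hybridized on different slides, was larger than that between alcohol and control at either month.

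Cyp27a1, the first enzyme of the alternative pathway, had log2 ratios of -0.30 and -0.33 after 1 month, -0.31 and 0.16 after 2 and -0.10 and 0.70 after 4. Only at 1 month did both arrays have the same sign. The averages were -0.31 (SD 0.02, n = 2 arrays), -0.08 (SD 0.34) and 0.30 (SD 0.56), and the mean over the months was -0.03 (95% confidence interval -0.37 to 0.30). The difference between Cyp27a1 and Cyp7b1, which act one after the other, was not tested.

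Of the ring-modifying enzymes, Hsd3b7 had log2 ratios of 0.21 and 0.09 after 1 month, 0.20 and 0.21 after 2 and -0.30 and -0.22 after 4. The 2 arrays of each month thus had the same sign, above 0 at 1 and 2 months and below 0 at 4 months. Akr1d1 gave averages of 0.23, -0.23 and 0.04, with SDs of 0.33, 0.13 and 0.11. The mean over the months was 0.03 for Hsd3b7 (95% confidence interval -0.26 to 0.32) and 0.02 for Akr1d1 (-0.25 to 0.29).

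Baat, the conjugating enzyme, gave averages of -0.07, -0.31 and -0.20 for A_51_P245123 and of -0.06, -0.02 and -0.11 for A_52_P43150. At 2 and 4 months both probes were below 0 with alcohol in Cy5 and above 0 with alcohol in Cy3. Their means over the months were -0.19 (95% confidence interval -0.38 to -0.01) and -0.06 (-0.22 to 0.09). The carrier Slc10a1 had log2 ratios of -0.26 and -0.33 after 1 month, -0.31 and -0.08 after 2 and -0.03 and 0.06 after 4. It was lower in the alcohol pool on both arrays at 1 and 2 months, and its mean was -0.16 (95% confidence interval -0.37 to 0.06). Each of these intervals leaves room for a change of up to about the size of its bounds, so the absence of a change was not shown.

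At an unadjusted p below 0.05, limma's test of the mean named 4 of the 12 probes (Cyp7b1, both probes of Cyp39a1, and A_51_P245123 of Baat), where 7.98% of all probes were named. The slope of the ratio per doubling of the treatment time named 5 of the 12 (both Cyp7a1 probes, Cyp8b1, Cyp27a1 and A_52_P557265 of Cyp39a1), where 7.42% of all probes were named and 0% passed after adjustment. The slope of Cyp7a1 was -0.81 for A_52_P84027 (SE 0.14, 95% confidence interval -1.19 to -0.43, n = 3 months; limma adjusted p = 0.616) and -0.42 for A_51_P290981 (SE 0.09, -0.66 to -0.18; limma adjusted p = 0.627). After normexp and loess the slope of A_52_P84027 had a limma adjusted p of 0.0485, with 0.132% of probes called, and that p lay between 0.0485 and 0.592 over 4 alternatives. Cyp8b1 had a slope of -0.78 (SE 0.20, -1.33 to -0.24). The slope was positive for Cyp27a1, at 0.31 (SE 0.08, 0.08 to 0.53), and for A_52_P557265 of Cyp39a1, at 0.43 (SE 0.08, 0.21 to 0.64). Cyp7b1 had a slope of -0.04 (SE 0.09, -0.30 to 0.21). The slope is fitted to 1 ratio per month and leaves 1 residual degree of freedom before moderation.

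**Figure D3:**
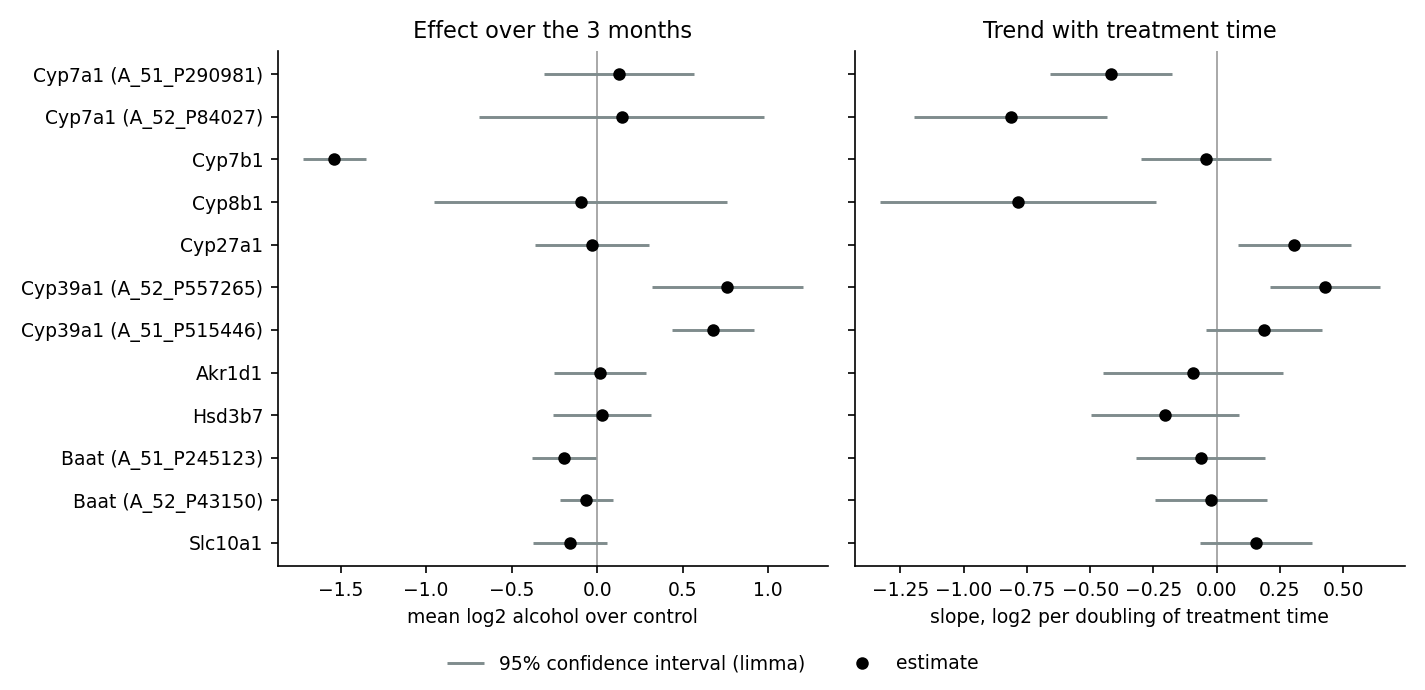
Mean log2 alcohol over control over the 3 months (left) and slope in log2 units per doubling of the treatment time (right) for the 12 probes, with limma's 95% confidence intervals before adjustment for multiple testing. Cyp7b1 stands lowest in the left panel with a slope near 0, while Cyp7a1 and Cyp8b1 have negative slopes and intervals across 0 on the left.

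Over the 6 arrays, the genes whose log2 ratios were nearest to those of Cyp7b1 were C6, a complement component (root mean square difference 0.54), Cyp4a12 (0.64) and Slco1a1 (0.64). C6 averaged -1.31, -0.70 and -1.23 at 1, 2 and 4 months, and this probe of Cyp4a12, a fatty acid hydroxylase, -1.05, -0.59 and -2.11. The other probe of Cyp4a12 gave 0.50, 0.19 and -0.13, so its pattern depends on the probe, whereas the other probe of Slco1a1 gave -1.69, -0.50 and -1.11, close to the first. Nearest to A_52_P557265 of Cyp39a1 were Sgk1 (0.22), a kinase, Cyp2a4 (0.25) and Gstm4 (0.27). Nearest to A_52_P84027 of Cyp7a1 were a probe without a gene name, A_52_P1156957 (0.18), Msmo1 of cholesterol synthesis (0.21) and Raet1e (0.31). For Cyp8b1 they were the fatty acid elongase Elovl5 (0.42), Insig1, a regulator of sterol synthesis (0.43), and the lipid droplet gene Plin2 (0.44).

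The rest of the pathway was read from lists with 1 probe per gene. Of all probes, 0.0801% to 0.34% were called in 1 direction at a month. Of 14 genes of further synthesis steps, 0 were called at any month, and the list medians were 0.08, -0.05 and -0.10. Scp2, a peroxisomal thiolase and sterol carrier, and Hsd17b6 were below 0 on all 6 arrays, at -0.21, -0.42 and -0.66 and at -0.42, -0.79 and -0.07. That held for 2.68% of the 27898 probes. Cyp2c70, which makes muricholic acids in the mouse, gave -0.48, -0.89 and 0.23, with opposite signs on the 2 arrays of 4 months.

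Of 16 bile acid transport genes, 1 was called, the uptake carrier Slco1a1. Its log2 ratios were -1.76 and -1.75 after 1 month, -1.10 and 0.11 after 2 and -1.61 and -0.61 after 4. It was called lower at 1 and 4 months, where 0.0801% and 0.282% of all probes were. The related carrier Slco1a4 was above 0 on all 6 arrays, with averages of 0.49, 0.40 and 0.89. The basolateral export pumps Abcc3 (0.37, 0.22 and 0.65) and Abcc4 (0.17, 0.07 and 0.25) were above 0 on all 6 arrays too. That held for 1.61% of the 27898 probes. The canalicular export pump Abcb11 averaged -0.47, -0.19 and 0.08, with opposite signs on the 2 arrays at 2 and 4 months. The list medians were -0.11, -0.03 and 0.01.

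Of 24 regulators, 2 were called, where 0.0801% to 0.34% of all probes were called in 1 direction at a month. Jun, a subunit of AP-1, was not clearly above background in any control channel, and its alcohol pool was well above background at 2 and 4 months, where it was at least 1.39-fold and at least 2.00-fold higher. These limits set the alcohol pool against the dimmest probes well above background, per channel after loess and Aquantile normalization, averaged over both dye orientations. Dbp, a clock-controlled factor that binds the D-box, was called lower at 2 months, with averages of -0.27, -1.001 and -0.81. Nr0b2 (SHP), the repressor that bile acids induce through Nr1h4 (FXR), averaged -0.29, 0.42 and 0.26. It was below 0 on both arrays at 1 month and above 0 on both at 2 and 4 months. Nr1h4 itself averaged -0.17, 0.18 and 0.05, with opposite signs on the 2 arrays at 2 and 4 months. Nr5a2 (LRH-1), an activator of Cyp7a1 and Cyp8b1, was below 0 on all 6 arrays, at -0.04, -0.39 and -0.25. That held for 2.68% of the 27898 probes. Fgfr4 averaged 0.14, -0.03 and -0.05, and its coreceptor Klb 0.01, 0.09 and 0.04. The list medians were 0.03, 0.03 and 0.03.

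**Figure D4:**
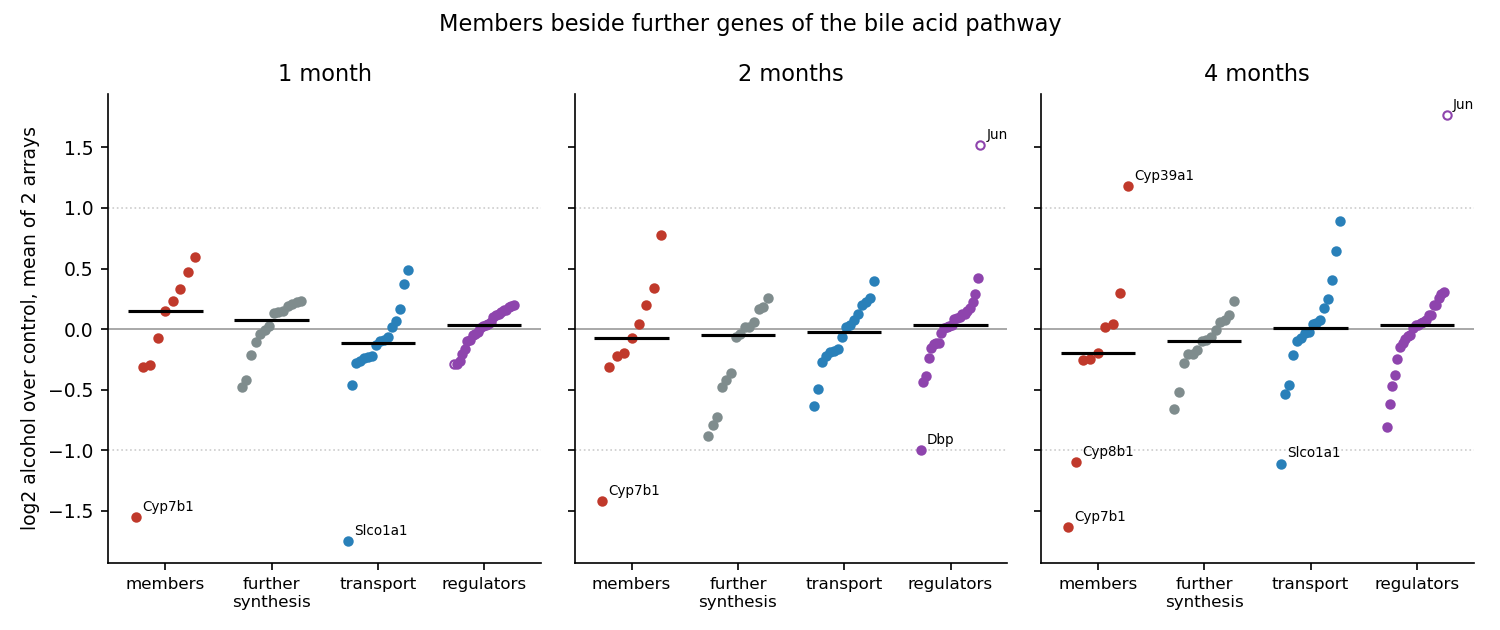
Mean log2 alcohol over control of the 2 arrays of each month (panels) for the 9 members, at the probe with the highest signal, and for genes of further synthesis steps, transport and regulation; points are genes, open points were not well above background in both channels of all arrays, black bars are medians and dotted lines mark 2-fold. Cyp7b1 lies below every gene of the other lists at 2 and 4 months, and Slco1a1 lies below it at 1 month.

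Cyp7b1 and Slco1a1 are known for higher expression in male than in female mouse liver, so the values of sex-dependent liver genes are given beside theirs. With limma, 0 genes of either list passed after adjustment for the mean over the months. The 14 male-predominant genes, which include Slco1a1 and C6, had medians of -0.73, -0.40 and -0.99, and 5, 1 and 7 of them were called lower at 1, 2 and 4 months, where 0.0801%, 0.129% and 0.282% of all probes were. Hsd3b5 averaged -2.93, -2.04 and -4.83, and Mup3 -0.89, -0.77 and -2.23. Elovl3 averaged -0.37, 0.58 and -1.20. The brighter Cyp4a12 probe, which stands for that gene in this list, averaged 0.50, 0.19 and -0.13. Of 15 female-predominant genes with a probe, 3, 5 and 8 were called higher, where 0.126%, 0.16% and 0.34% of all probes were, with medians of 0.20, 0.24 and 1.19. Cyp2b13 averaged 3.40, 2.88 and 2.36, and Cyp2b9 2.73, 1.11 and 1.87. Besides these, Acot3 was called at 1 month, and Cyp3a16, Cyp3a41a and Cyp3a44 at 2 months. A1bg averaged -0.14, -0.13 and -0.28, Prom1 -0.07, -0.004 and 0.20, and Sult3a1 -0.47, -0.14 and 2.14. The part of sex-dependent expression in the result for Cyp7b1 was not tested. The 6 probes of 4 Y-chromosome genes that were well above background lay between -0.29 and 0.18 at all months, and the brightest Xist probe gave -0.18, 0.18 and 0.12. These were looked up after the sex-dependent lists had been seen.

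Bile acid synthesis also follows the time of day. Of 13 clock and clock output genes, 4 were below 0 on all 6 arrays, where 2.68% of the 27898 probes were, and 0 were above 0 on all 6. Dbp and Nr1d1 (-0.09, -0.44 and -0.62) had the largest means in size. Other genes of the list went the other way. Npas2 averaged -0.25, 0.07 and 0.73, with opposite signs on the 2 arrays at 2 months. Nfil3 averaged 0.31, 0.20 and 0.37. Clock (0.47) and Per1 (0.36) were above 0 on both arrays at 2 months. The medians of the averages were -0.05, -0.22 and -0.23. By dye orientation, the 4-month median was -0.003 with alcohol in Cy5 and -0.06 with alcohol in Cy3, both smaller in size than that of the averages. Genes above and below 0 offset each other in a median, so a median near 0 does not show unchanged genes. The part of the time of day in the ratios of Cyp7a1 and Cyp8b1 was not tested.

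The labeled tissue was checked against its markers. The 7 hepatocyte markers with a probe were well above background in all pools, with medians of 0.27, -0.14 and -0.01 and 0 called. Tat gave the largest mean in size, at 0.27, 0.61 and 0.69, and Fabp1 the next, in the other direction, at -0.58, -0.75 and -0.07. These averages cover large dye differences. By dye orientation, the 4-month median of the list was 1.23 with alcohol in Cy5 and -0.007 with alcohol in Cy3. Fabp1 gave 1.29 and -1.42 in the same order. Whether the hepatocyte content was steady was not tested. The signal of the hepatocyte markers, summed as multiples of the median signal of the channel, ran from 254 to 1039 in the control and from 347 to 985 in the alcohol channels. Such sums cover different numbers of genes and different probes in each list, so they do not compare cell types with each other. The 6 cholangiocyte markers had 0 calls and summed signals of 58.8 to 113 and 54.6 to 106. Of 5 Kupffer cell markers, Adgre1 was called higher at 1 month (1.23), where 0.126% of all probes were. The sums were 37.6 to 65.9 and 44.1 to 63.5. The 5 stellate and 3 endothelial markers had 0 calls, with sums of 31.7 to 58.9 and 34.7 to 49.9, and of 6.09 to 8.45 and 7.11 to 8.70. Of 12 pancreas acinar markers, Cpb1 was called higher at 4 months (2.17), where 0.34% of all probes were. That list had a median of 0.34 at 4 months and sums of 63.3 to 110 in the control and 58.3 to 145 in the alcohol channels. The 4-month averages were the lowest for Cyp7a1, Cyp7b1, Cyp8b1 and Hsd3b7, and the highest for Cyp39a1, Cyp27a1 and Slc10a1. The part of pancreatic RNA in the 4-month ratios was not tested.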

How the data were processed

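Liver RNA pools of alcohol-treated and control mice were compared on 6 two-color arrays. The authors deposited Feature Extraction 9.1.1.1 output (version from the submitters' processing notes), which holds a background- and dye-corrected intensity for each dye and, for every spot, the log10 of Cy5 over Cy3 with an error. A deposited table of log ratios, stored as log10 values already turned to alcohol over control, was an alternative. Ratios were turned to alcohol over control from the dyes in the labels, converted to log2, and averaged over spots and over the dye-swap pair, so that each month was 1 replicate. Levels are log2 intensity minus the 75th percentile of the channel, and 39 of 72 member levels moved by more than the SD of the 2 arrays under loess with Aquantile scaling.

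The mean against 0 and the slope on log2 of the month were tested with limma 3.58.1 in R 4.3.3 over the 37922 probes that exceeded background clearly in any channel of any array, with Benjamini-Hochberg adjustment at 0.05, and the scripts were tested on simulated data. Other steps used Python 3.11.15 with numpy 2.4.6, pandas 2.3.3 and matplotlib 3.10.9. RefSeq accessions gave 22951 of 41174 probes a current symbol.

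The members, lists and rules were chosen with earlier results of these data known, and lists are described by counts and medians only. Named genes are the members and the 3 nearest genes of each called member. Pathway genes were named when called at a month. Those in 1 direction on all 6 arrays needed a mean of at least 0.5 in size. Of the other lists, the 2 genes with the largest mean in size were to be named. For the Kupffer, pancreas acinar, cholangiocyte, stellate and endothelial markers, only called genes were named. Scp2, Hsd17b6, Cyp2c70, Abcc3, Abcc4, Abcb11, Nr0b2, Nr1h4, Nr5a2, Fgfr4, Klb, Y-chromosome genes and Xist were named outside these rules. So were Npas2, Nfil3, Clock, Per1, Acot3, Cyp3a16, Cyp3a41a, Cyp3a44, A1bg, Prom1, Sult3a1, Elovl3 and the brighter Cyp4a12 probe. They were named for their roles or after their values were seen. Alternatives were normexp (offset 50) with loess, ratios of processed signals, the deposited table, error-weighted averages, single dye orientations, filters on dim probes, median centring, leaving out each month, slide as a block, a linear time scale, other call rules and other probe rules.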

Additional observations from a re-analysis of the deposited data

Results flagged for a closer look

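For 4 of the 12 probes the ratio had one sign on both arrays of 1 month and the opposite sign on both arrays of another. For Cyp7a1 the log2 ratio at 4 months minus that at 1 month was -0.83 for A_51_P290981 and -1.63 for A_52_P84027, and for the latter the 2-month ratio minus that of 1 month was -1.22. For Cyp8b1 the 4-month ratio minus that of 1 month was -1.57. For Hsd3b7 the 4-month ratio minus that of 1 month was -0.41, and minus that of 2 months -0.46. With 3 months on the log2 time scale, the fitted slope is the difference between 4 months and 1 month divided by 2, so limma's test of the slope is also the test of that difference. It gave unadjusted p-values of 0.00814 and 0.00374 for the Cyp7a1 probes in this order, 0.0158 for Cyp8b1 and 0.126 for Hsd3b7, with adjusted p-values of 0.627, 0.616, 0.627 and 0.787. The differences that involve 2 months were not tested. Among the 27898 probes clearly above background in every channel, opposite signs of this kind occurred in 9.52% between 1 and 2 months, 7.51% between 1 and 4 months and 4.23% between 2 and 4 months, against 1, 4 and 1 of the 12 member probes. The 4 member probes include both of Cyp7a1. Opposite signs on the 2 arrays of a month exclude a probe from this count. They were more frequent over all probes than among the members, so these shares are not directly comparable. The difference from 1 month coincides with the change of slide, whereas 2 and 4 months share a slide.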

How the results depend on the processing

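The probes called by limma for the mean over the months numbered 0 in the main setting, where 3028 had an unadjusted p below 0.05. They numbered 9 after normexp and loess, and 6 with the fit limited to probes above background in both channels of all arrays. Leaving out any 1 month gave 0. For the slope they numbered 0 in the main setting, where 2813 had an unadjusted p below 0.05, and 50 after normexp and loess. The cause was not tested. The array with alcohol in Cy3 alone changed the member probes called from 2 to 1 at 1 month and from 1 to 3 at 2 months, and the 1.5-fold rule gave 3 at 2 months. The sign of the mean over the months held for Cyp7b1, Cyp39a1 and Slc10a1 in all 13 alternatives, and turned in 3 of 13 for Cyp8b1 and in 1 or 2 for each other probe. The signs of the slopes of Cyp7a1, Cyp8b1, Cyp27a1 and Cyp39a1 held in all 4. No paired analysis was possible because each month has its own mice and the replicate number marks only the dye orientation. With 6 arrays of pooled RNA, precision is limited by their number.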
